A study of Mus musculus with 9 samples.

Results

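The genes described here are 51 genes of ribosome biogenesis: subunits and factors of RNA polymerase I, small nucleolar ribonucleoproteins, processing and assembly factors of both ribosomal subunits, abundant nucleolar proteins, and the transcription factor Myc. They were picked by name from the 48663 entries of a count table, leaving out the ribosomal proteins themselves, and with measured values of these libraries already known. The rule names no threshold or test, so the counts of members given below are descriptions of a chosen list. All 51 had enough reads to be tested, among 15738 genes tested.

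RNA sequencing was done on memory T cells specific for LCMV (lymphocytic choriomeningitis virus), sorted from mouse spleen on day 30 of an infection with the Armstrong strain, which the mouse clears. CD4 ThpokAD libraries came from GP66:I-Ab+ cells of Ox40-Cre+ Thpokfl/fl mice, in which the Cre recombinase is driven by the Ox40 (Tnfrsf4) gene, active in T cells after activation, and is meant to delete the floxed Thpok gene (Zbtb7b). CD8 control libraries came from GP33:H-2Db+ cells and CD4 control libraries from GP66:I-Ab+ cells, both of Ox40-Cre- mice. Each group had 3 libraries. The labels do not say whether replicates are separate animals, so p-values measure the spread between these libraries, which may be technical. They also do not say whether the Cre-negative mice carried floxed alleles, and Cre was carried by the ThpokAD group alone, so loss of Thpok and presence of Cre cannot be told apart. GP66:I-Ab and GP33:H-2Db are tetramers of a viral peptide on class II and class I molecules, bound by CD4 and CD8 T cells.

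Ribosomes are built in the nucleolus, where RNA polymerase I copies the ribosomal DNA into a long precursor RNA. Small nucleolar RNAs, each held in a box C/D or box H/ACA particle, guide methylation and pseudouridylation of that precursor, and a large processome cuts and folds it while the small and large subunits assemble. MYC is known to raise transcription of many of these genes, and T cells enlarge their nucleoli when they are activated and divide. Resting memory T cells are smaller and make fewer new ribosomes than activated ones.

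Libraries held 16664474 to 38981516 counts, the highest being CD8 control replicate 3, which also had the lowest sum of cytosolic ribosomal protein genes. Levels are CPM (counts scaled to a fixed library total, with TMM-adjusted library sizes); TMM corrects for libraries dominated by a few genes. CPM values are not corrected for gene length, so levels are compared between groups and not between genes. Zbtb7b was measured at 0.698, 0.875 and 0.849 CPM in ThpokAD libraries, 24.0, 19.4 and 18.8 CPM in CD8 controls and 38.5, 47.5 and 48.9 CPM in CD4 controls, so the targeted gene was lowest in every ThpokAD library. Cd4 averaged 635 ± 72.4 CPM in ThpokAD libraries, 1.28 ± 1.02 CPM in CD8 controls and 1354 ± 57.2 CPM in CD4 controls (SD, n = 3 each), and Cd8a averaged 49.6 CPM in ThpokAD libraries, 814 CPM in CD8 controls and 3.25 CPM in CD4 controls. Summed markers of NK cells (6 genes) spanned 151 to 235 CPM in ThpokAD libraries, 233 to 273 CPM in CD8 controls and 24.2 to 25.2 CPM in CD4 controls. Klra8 was at 0 in every ThpokAD library, and Ncr1 and Klra8 in every CD4 control library. Myeloid markers (8 genes) summed to 272 to 317 CPM in ThpokAD libraries, 97.5 to 331 CPM in CD8 controls and 149 to 257 CPM in CD4 controls. B cell markers (8 genes) summed to 22.0 to 55.5 CPM in ThpokAD libraries, with Fcer2a at 0, to 33.5 to 60.3 CPM in CD8 controls and to 26.2 to 45.5 CPM in CD4 controls. Erythroid markers (6 genes) summed to 6.59 to 102 CPM in ThpokAD libraries, 11.8 to 52.3 CPM in CD8 controls and 4.06 to 119 CPM in CD4 controls. The part of these other cell types in the results was not tested.

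As a sum, the listed members were lower in ThpokAD memory cells than in both kinds of control cell. The summed level of 48 members, leaving out the very abundant Ncl and Npm1 and the regulator Myc, was 3021, 2991 and 2987 CPM in ThpokAD libraries, 3670, 3941 and 3886 CPM in CD8 controls and 3736, 3741 and 3888 CPM in CD4 controls. All 3 ThpokAD libraries lay below all 6 control libraries, and the 2 control groups overlapped each other. The ThpokAD mean was 20.8% below the CD4 control mean and 21.7% below the CD8 control mean. With Ncl, Npm1 and Myc included, the sum was 4170, 3937 and 4194 CPM in ThpokAD libraries, 4714, 4955 and 4784 CPM in CD8 controls and 4968, 5032 and 4963 CPM in CD4 controls. In such bulk samples, fewer cells that make these messages and less message in each cell cannot be told apart.

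**Figure D1:**
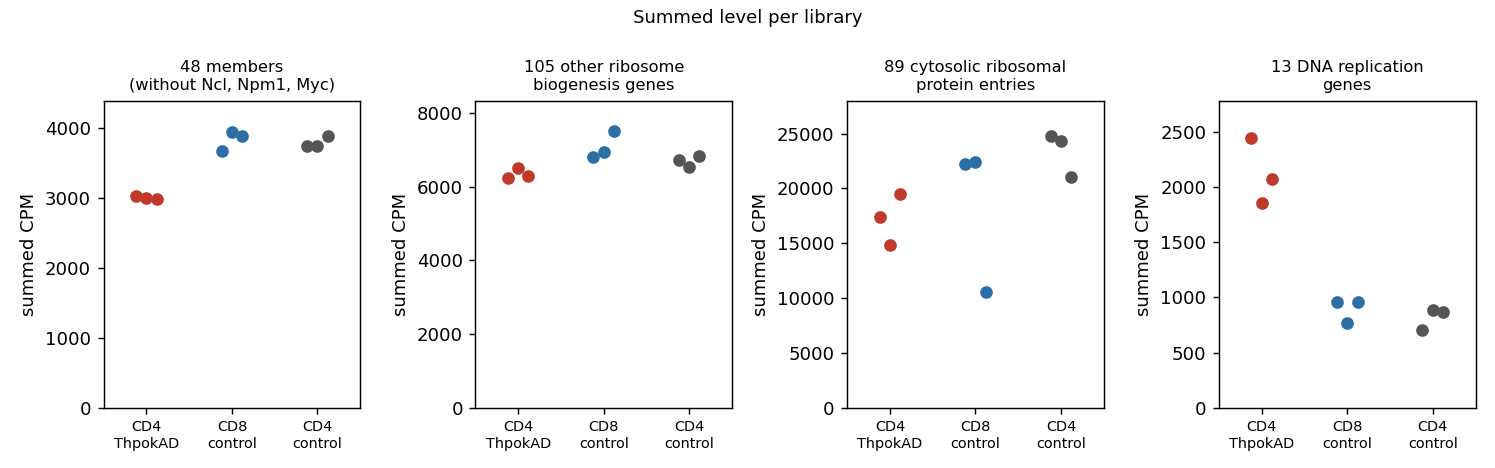
Summed CPM per library (y axes, from 0) of 4 gene lists in CD4 ThpokAD, CD8 control and CD4 control libraries (x axes); each point is 1 library. The 48 members were lowest in the 3 ThpokAD libraries, at 2987 to 3021 CPM, whereas the 13 DNA replication genes were highest there, at 1860 to 2445 CPM.

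Against CD4 controls, 45 of the 51 members had a log2 fold change below 0 in ThpokAD cells, with a median of -0.27, where all tested genes had a median of 0.0035. Heatr1, Gnl3, Ppan, Tsr1 and Nop58 were called lower at an edgeR quasi-likelihood adjusted p under 0.05, beside a background of 0.928% of all tested genes called lower and 2.74% called in either direction. No member was called higher by edgeR, by DESeq2 or by limma, beside a background of 1.81% in edgeR, and at an unadjusted edgeR p under 0.05 there were 13 lower members and 0 higher (25.5% of members, beside 15.7% of all tested genes, 1087 of them lower and 1380 higher). In 19 members every ThpokAD library lay below every CD4 control library, beside 12.5% of all genes, and in 0 members every one lay above, beside 13.2%. The 5 called genes belong to the box C/D particle (Nop58), the small subunit (Heatr1, Tsr1) and the large subunit (Gnl3, Ppan).

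Against CD8 controls, 41 members had a log2 fold change below 0 in ThpokAD cells, with a median of -0.44 beside -0.0059 for all tested genes. Nop2, Heatr1, Ppan and Tsr1 were called lower by edgeR, beside a background of 1.91% called lower and 6.54% called in either direction. None was called higher by edgeR, DESeq2 or limma, beside a background of 4.63% in edgeR, and at an unadjusted edgeR p under 0.05 there were 18 lower members and 1 higher (37.3% of members, beside 21.3% of all tested genes, 1430 of them lower and 1917 higher). Every ThpokAD library lay below every CD8 control library in 22 members, beside 12.6% of all genes, and above in 1 member, Polr1d, beside 14.6%. Without CD8 control replicate 3, 43 members lay below 0, the median was -0.41 and Heatr1, Nop2 and Wdr75 were called. This comparison and the one with CD4 controls share the ThpokAD libraries and are not independent.

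Between CD8 and CD4 controls the members were split: 27 had a log2 fold change above 0 in CD8 cells and 24 below, with a median of 0.05 beside 0.01 for all tested genes. Nop2 and Nhp2 were called higher in CD8 controls, beside a background of 5.13%, and Polr1d and Nop58 lower, beside 6.55% (11.7% in either direction). Every CD8 control library lay above every CD4 control library in 10 members, beside 17.3% of all genes, and below in 5, beside 16.6%. EdgeR called none of the 51 when CD4 control replicate 1, CD8 control replicate 2 or CD8 control replicate 3 was left out. Without CD8 control replicate 3, 24 lay below 0. The group with the lowest mean was ThpokAD for 36 members, the CD8 controls for 9 and the CD4 controls for 6. Of the 51 members, 13 had lower values in all 3 ThpokAD libraries than in all 6 control libraries, beside 364 of all tested genes (2.31%). They were Myc, the small subunit factors Heatr1, Utp14a, Utp18, Utp20, Wdr43, Wdr75 and Tsr1, and the large subunit factors Gnl3, Ppan, Rrp1b, Noc2l and Brix1.

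**Figure D2:**
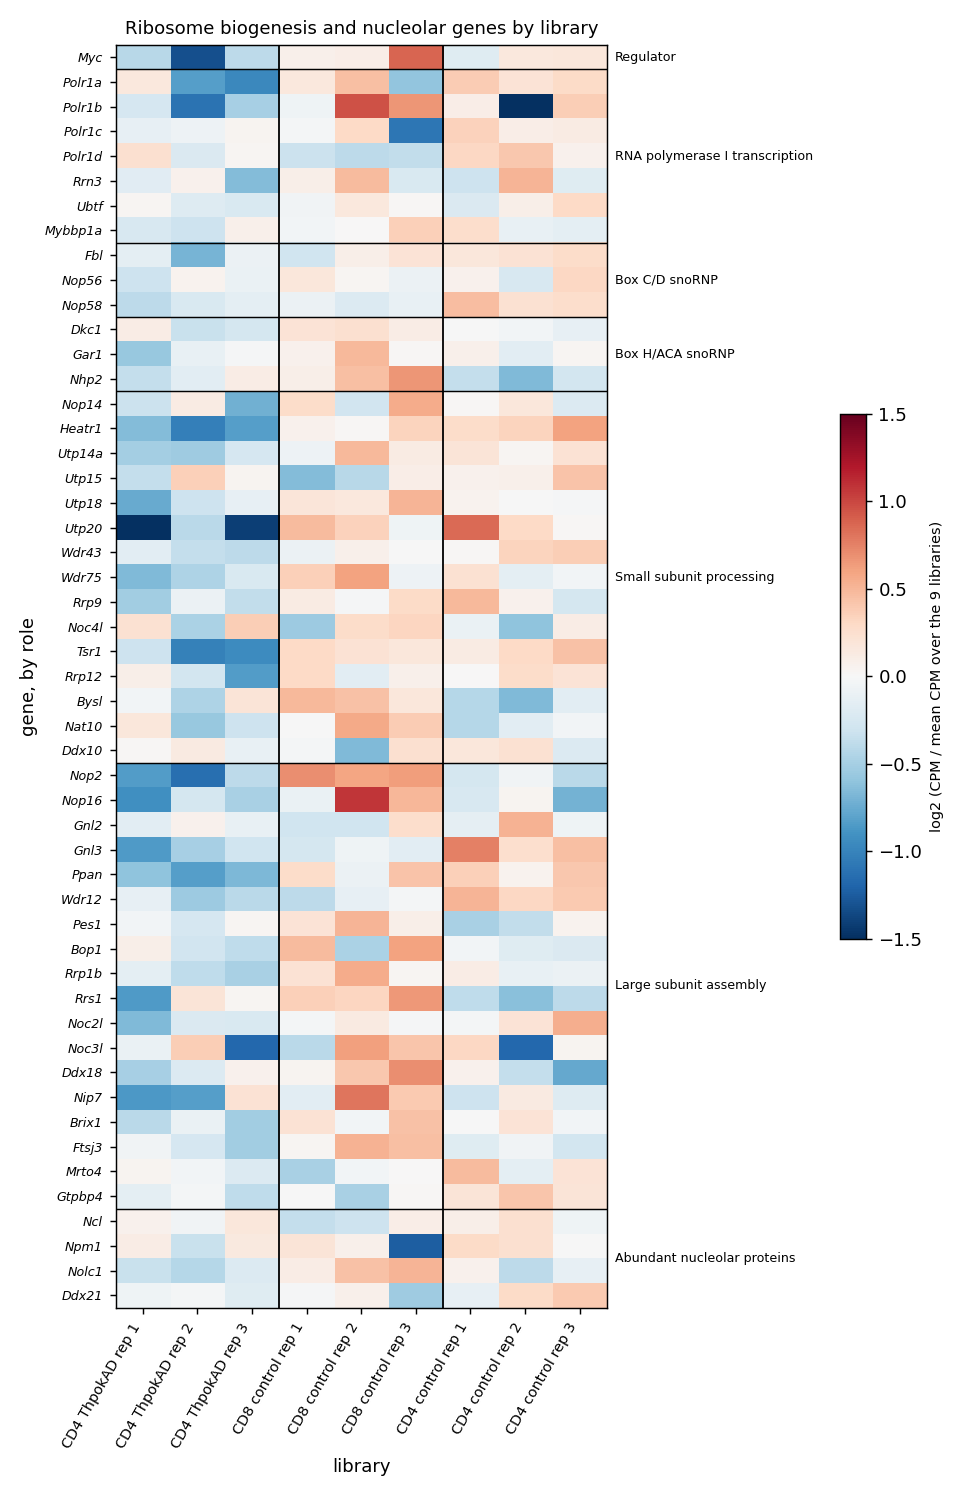
Level of each of the 51 genes (rows, grouped by role) in each of the 9 libraries (columns), as log2 of CPM over the gene's mean of the 9 libraries, with colours ending at -1.5 and 1.5. Blue (below the gene's mean) fills most of the ThpokAD columns in the small and large subunit rows, and the values of Polr1b, Utp20 and Npm1 vary widely within a group.

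Promoter sequence is shown for the 4 members called lower in ThpokAD cells than in CD8 controls and for Rrn3, which carries 2 copies of the E-box, the motif bound by MYC with its partner MAX. Each is the 250 bases before the annotated start from RefSeq (GRCm38.p6), 5′ to 3′ on the gene's strand (RefSeq's start can differ from GENCODE's), with the E-box CACGTG in capitals.
Heatr1 (chr13:12395125-12395374, plus strand): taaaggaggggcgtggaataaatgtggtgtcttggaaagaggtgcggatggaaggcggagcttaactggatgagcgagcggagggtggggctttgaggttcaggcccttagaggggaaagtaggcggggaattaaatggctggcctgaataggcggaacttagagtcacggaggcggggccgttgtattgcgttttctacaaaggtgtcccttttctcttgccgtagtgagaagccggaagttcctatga
Tsr1 (chr11:74897830-74898079, plus strand): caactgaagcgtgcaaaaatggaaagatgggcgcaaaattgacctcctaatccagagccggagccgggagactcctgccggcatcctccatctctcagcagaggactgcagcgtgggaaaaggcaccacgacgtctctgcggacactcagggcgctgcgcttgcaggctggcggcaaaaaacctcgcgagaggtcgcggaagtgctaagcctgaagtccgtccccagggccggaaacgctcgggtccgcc
Ppan (chr9:20887925-20888174, plus strand): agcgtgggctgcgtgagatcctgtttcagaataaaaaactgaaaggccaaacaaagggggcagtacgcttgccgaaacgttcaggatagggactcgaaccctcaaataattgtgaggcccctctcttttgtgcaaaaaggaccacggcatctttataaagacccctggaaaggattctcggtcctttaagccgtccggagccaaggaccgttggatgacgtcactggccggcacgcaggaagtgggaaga
Nop2 (chr6:125131633-125131882, plus strand): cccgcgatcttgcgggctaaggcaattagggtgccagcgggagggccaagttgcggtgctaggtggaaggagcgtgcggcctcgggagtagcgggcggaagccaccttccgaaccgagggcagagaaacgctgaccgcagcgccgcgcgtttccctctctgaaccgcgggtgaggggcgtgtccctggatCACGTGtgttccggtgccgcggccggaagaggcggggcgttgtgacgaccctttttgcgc
Rrn3 (chr16:13780449-13780698, plus strand): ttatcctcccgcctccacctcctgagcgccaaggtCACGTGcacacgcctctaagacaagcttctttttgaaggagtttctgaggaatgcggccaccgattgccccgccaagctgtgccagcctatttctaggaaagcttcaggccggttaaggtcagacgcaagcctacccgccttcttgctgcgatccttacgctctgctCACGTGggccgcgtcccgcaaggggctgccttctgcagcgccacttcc

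The promoter table matched 44 of the 51 members, and Bop1, Rrp12, Fbl, Gnl2, Npm1, Myc and Rrs1 were not matched. CACGTG, which reads the same on both strands, lay in the window of 3 of the 44 (6.82%), Nop2, Utp18 and Rrn3, against 9.73% of the 9445 tested genes with a promoter and 13.9% of the other ribosome biogenesis genes (11 of 79). In Nop2 it ran from base -60 to -55 and in Rrn3 from -215 to -210 and from -48 to -43, counted back from the start. The windows of Heatr1, Tsr1 and Ppan held no CACGTG. That of Heatr1 lies inside the gene as GENCODE places it and holds 23 annotated exon bases, and that of Tsr1 holds 9. On both strands, ATTGG, the reverse of CCAAT, lay in 31.8% of member windows against 40.5% of all. The exact string ACCGGAAGT, a strict form of ETS factor sites, lay in 0 member windows and in 1.91% of all. Shorter forms of the site were not counted, and the printed Heatr1 window holds CCGGAAGT. These are matches of letters in a window of one length, and not binding sites.

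Myc, which drives transcription of many growth genes, was measured at 36.6, 19.5 and 37.2 CPM in ThpokAD libraries, 51.3, 52.4 and 89.2 CPM in CD8 controls and 43.0, 54.4 and 54.9 CPM in CD4 controls. Every ThpokAD library lay below every control library, and CD8 control replicate 3 was far above the other two of its group. The log2 fold change was -1.05 ± 0.31 (SE, adjusted p = 0.084) against CD8 controls and -0.71 ± 0.31 (SE, adjusted p = 0.31) against CD4 controls in edgeR. Neither passed the threshold in the main fit. DESeq2 called the first with an adjusted p of 0.013, and so did an alternative edgeR fit with bias-adjusted deviances, at its own adjusted p under 0.05. Between CD8 and CD4 controls it was 0.34 (adjusted p = 0.542).

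Of the 7 genes of RNA polymerase I transcription, none was called in either ThpokAD comparison by edgeR, DESeq2 or limma. EdgeR called 2.74% of all tested genes against CD4 controls and 6.54% against CD8 controls. All 7 had log2 fold changes below 0 against CD4 controls, by -0.16 to -0.75. There edgeR gave 0 members of the group an unadjusted p under 0.05, beside 15.7% of all tested genes. Polr1a, the catalytic subunit, was measured at 65.2, 33.0 and 30.0 CPM in ThpokAD libraries, 65.2, 80.0 and 38.7 CPM in CD8 controls and 76.2, 67.4 and 71.6 CPM in CD4 controls, with a log2 fold change of -0.75 (adjusted p = 0.34) against CD4 controls in edgeR. Every ThpokAD library lay below every CD4 control library, replicate 1 only narrowly, and replicate 1 was within the range of the CD8 controls. CD8 control replicate 3 was also low. Polr1b, a core subunit, had the largest standard error of the members against CD4 controls (0.66 on the log2 scale) and was measured at 26.0, 14.4 and 22.0 CPM in ThpokAD libraries, 29.7, 60.2 and 49.2 CPM in CD8 controls and 33.2, 4.17 and 40.1 CPM in CD4 controls. CD4 control replicate 2 held only 73 reads of it.

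Polr1d, a subunit shared with RNA polymerase III, was measured at 141, 103 and 122 CPM in ThpokAD libraries, 96.5, 91.5 and 93.2 CPM in CD8 controls and 149, 159 and 125 CPM in CD4 controls. The CD8 control libraries were the 3 lowest, and the log2 fold change between CD8 and CD4 controls was -0.62 ± 0.15 (SE, adjusted p = 0.0291) in edgeR. The call did not survive the removal of any CD8 control library or of replicate 1 or 2 of the CD4 controls (adjusted p at least 0.0726). The ThpokAD libraries lay above the CD8 controls by a log2 difference of 0.38 (adjusted p = 0.181) and overlapped the CD4 controls.

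Rrn3, which brings the polymerase to the ribosomal DNA promoter, was measured at 70.5, 82.9 and 50.5 CPM in ThpokAD libraries, 84.5, 110.3 and 68.0 CPM in CD8 controls and 64.2, 113 and 69.9 CPM in CD4 controls, with overlapping groups. Ubtf, which binds that promoter and keeps the genes open, was measured at 196, 168 and 165 CPM in ThpokAD libraries, 186, 216 and 196 CPM in CD8 controls and 166, 204 and 236 CPM in CD4 controls. Mybbp1a, a nucleolar repressor of polymerase I transcription, was measured at 117, 111 and 145 CPM in ThpokAD libraries, 133, 139 and 176 CPM in CD8 controls and 165, 128 and 125 CPM in CD4 controls. Groups overlapped for both genes in every comparison, and their log2 fold changes against CD4 controls were -0.20 ± 0.15 and -0.16 ± 0.18 (SE) in ThpokAD cells. Polr1c, the other subunit shared with polymerase III, averaged 57.4 CPM in ThpokAD libraries, 53.2 CPM in CD8 controls and 67.9 CPM in CD4 controls.

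The box C/D particle carries the methylase fibrillarin (Fbl) with Nop56 and Nop58, and all 3 genes had log2 fold changes below 0 in both ThpokAD comparisons. Nop58 was measured at 85.0, 94.9 and 101 CPM in ThpokAD libraries, 105, 97.0 and 103 CPM in CD8 controls and 154, 130.5 and 134 CPM in CD4 controls. The CD4 control libraries were the 3 highest, with the ThpokAD and CD8 control libraries overlapping each other below them. The log2 fold change was -0.58 ± 0.12 (SE, adjusted p = 0.0478) in ThpokAD cells and -0.46 ± 0.12 (SE, adjusted p = 0.0464) in CD8 controls, both against CD4 controls in edgeR. Both calls stood close to the threshold, and leaving out any 1 of the 9 libraries lost them, with adjusted p up to 0.181 and 0.161. Nop58 (GENCODE M21, mm10, chr1:59684971-59719044, plus strand) holds 4 small nucleolar RNA genes within it, 1 of which shares 84 bases with its exons.

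Fbl was measured at 22.8, 15.6 and 23.8 CPM in ThpokAD libraries, 20.5, 26.8 and 29.1 CPM in CD8 controls and 28.4, 29.4 and 30.6 CPM in CD4 controls. ThpokAD libraries lay below the CD4 controls, with a log2 fold change of -0.51 (adjusted p = 0.331) in edgeR. Nop56 was measured at 149, 193 and 173 CPM in ThpokAD libraries, 208, 188 and 174 CPM in CD8 controls and 194, 156 and 230.4 CPM in CD4 controls, and its groups overlapped throughout.

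The box H/ACA particle, which makes pseudouridine and also binds telomerase RNA, had its highest group mean in the CD8 controls for all 3 genes. Nhp2, one of its core proteins, was measured at 39.2, 44.9 and 54.0 CPM in ThpokAD libraries, 53.1, 68.7 and 79.4 CPM in CD8 controls and 39.1, 31.6 and 41.4 CPM in CD4 controls, so that the 3 CD8 control libraries were above all CD4 control libraries. The log2 fold change between CD8 and CD4 controls was 0.84 ± 0.21 (SE, adjusted p = 0.0324) in edgeR, a call lost without any 1 of 6 libraries: all 3 CD4 controls, ThpokAD replicate 2 and CD8 control replicates 2 and 3 (adjusted p at least 0.0533). In ThpokAD cells Nhp2 had a log2 fold change of 0.30 (adjusted p = 0.574) against CD4 controls and -0.54 (adjusted p = 0.173) against CD8 controls. Dkc1, the pseudouridine synthase itself, was measured at 117, 86.3 and 90.2 CPM in ThpokAD libraries, 125, 128 and 117 CPM in CD8 controls and 109, 105 and 99.99 CPM in CD4 controls, with the CD8 controls above the CD4 controls and a log2 fold change between them of 0.24 (adjusted p = 0.339). Gar1 averaged 21.4 CPM in ThpokAD libraries, 28.6 CPM in CD8 controls and 24.5 CPM in CD4 controls.

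Among the 15 small subunit factors, 13 had a log2 fold change below 0 against CD4 controls in ThpokAD cells and 12 against CD8 controls, with medians of -0.45 and -0.49. The summed level of the group was 795, 786 and 770 CPM in ThpokAD libraries, 1011, 1041 and 1105 CPM in CD8 controls and 1043, 1043 and 1077 CPM in CD4 controls, and the ThpokAD libraries were the 3 lowest.

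Heatr1 (chr13:12395027-12440289, plus strand) encodes the mouse counterpart of yeast Utp10, a part of the processome that also joins transcription of the precursor RNA to its processing. It was measured at 48.4, 37.3 and 43.0 CPM in ThpokAD libraries, 79.5, 76.7 and 96.2 CPM in CD8 controls and 91.9, 95.7 and 116 CPM in CD4 controls, a level in ThpokAD libraries below that of every control library. The log2 fold change was -1.24 ± 0.17 (SE, adjusted p = 0.00614) against CD4 controls and -0.97 ± 0.17 (SE, adjusted p = 0.0104) against CD8 controls in edgeR. Both calls held in all 16 alternative fits, with adjusted p up to 0.0345 and 0.0431 when 1 library was left out. CD8 controls and CD4 controls overlapped, with a log2 fold change of -0.27 (adjusted p = 0.362). Its exons share 155 bases with Lgals8 on the other strand, and since the library kits do not mark strand, reads from those bases cannot be assigned to a gene.

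Tsr1 (chr11:74898071-74909342, plus strand) encodes a GTPase-like factor needed to mature the small subunit in the cytoplasm. It was measured at 28.3, 17.4 and 18.2 CPM in ThpokAD libraries, 43.4, 40.8 and 39.5 CPM in CD8 controls and 38.3, 43.4 and 47.7 CPM in CD4 controls, with all ThpokAD libraries below all controls. In edgeR its log2 fold change was -1.02 ± 0.22 (SE, adjusted p = 0.0483) against CD4 controls and -0.95 ± 0.22 (SE, adjusted p = 0.0372) against CD8 controls. Leaving out any library other than ThpokAD replicate 1, the highest of its group, lost both calls, with adjusted p up to 0.161 and 0.12. Tsr1 shares 1240 exon bases with Srr on the other strand, and its reads cannot be told apart from those of Srr there.

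Utp20, another processome subunit, had the lowest log2 fold change of the group against CD4 controls but was unsteady, at 9.93, 36.0 and 17.9 CPM in ThpokAD libraries, 66.3, 60.5 and 45.7 CPM in CD8 controls and 85.7, 58.8 and 48.4 CPM in CD4 controls. ThpokAD libraries lay below all controls and differed among themselves, with ThpokAD replicate 1 the lowest. By edgeR the log2 fold change was -1.59 ± 0.43 (SE, adjusted p = 0.102) against CD4 controls and -1.43 ± 0.43 (SE, adjusted p = 0.0922) against CD8 controls. Neither passed the threshold in the main edgeR fit, while DESeq2 and limma called both. Both passed it in edgeR without ThpokAD replicate 2, the highest of its group (adjusted p = 0.0329 and 0.0248). With bias-adjusted deviances edgeR called the one against CD8 controls.

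Nat10, which acetylates ribosomal RNA, was measured at 77.8, 46.6 and 55.7 CPM in ThpokAD libraries, 68.9, 103 and 89.9 CPM in CD8 controls and 51.3, 62.1 and 67.4 CPM in CD4 controls, so that ThpokAD and CD4 control libraries overlapped and CD8 controls were higher than CD4 controls without a call (log2 fold change 0.53, adjusted p = 0.184). Bysl, which the small subunit precursor needs for export, had the highest log2 fold change of the group in ThpokAD cells against CD4 controls, 0.32 (adjusted p = 0.554). Noc4l, a Noc4 family factor, had a log2 fold change of 0.26 (adjusted p = 0.789) in the same comparison. Between CD8 and CD4 controls Bysl had a log2 fold change of 0.77 (edgeR adjusted p = 0.0521). DESeq2 called it higher in CD8 controls (adjusted p = 0.0101), as did edgeR with bias-adjusted deviances. The remaining factors were Nop14, Utp14a, Utp15, Utp18, Wdr43, Wdr75, Rrp9, Rrp12 and Ddx10. Of these 9, edgeR called none in any comparison, where it called 2.74% to 11.7% of all tested genes. DESeq2 called Wdr43 lower in ThpokAD cells than in CD4 controls (adjusted p = 0.00139). It called Utp14a, Utp18 and Wdr75 lower than in CD8 controls (adjusted p = 0.0311, 0.0106 and 0.0133). Without CD8 control replicate 3 edgeR also called Wdr75 against CD8 controls (adjusted p = 0.0375). Their log2 fold changes in ThpokAD cells were -0.58 to -0.06 against CD4 controls and -0.77 to 0.33 against CD8 controls.

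**Figure D3:**
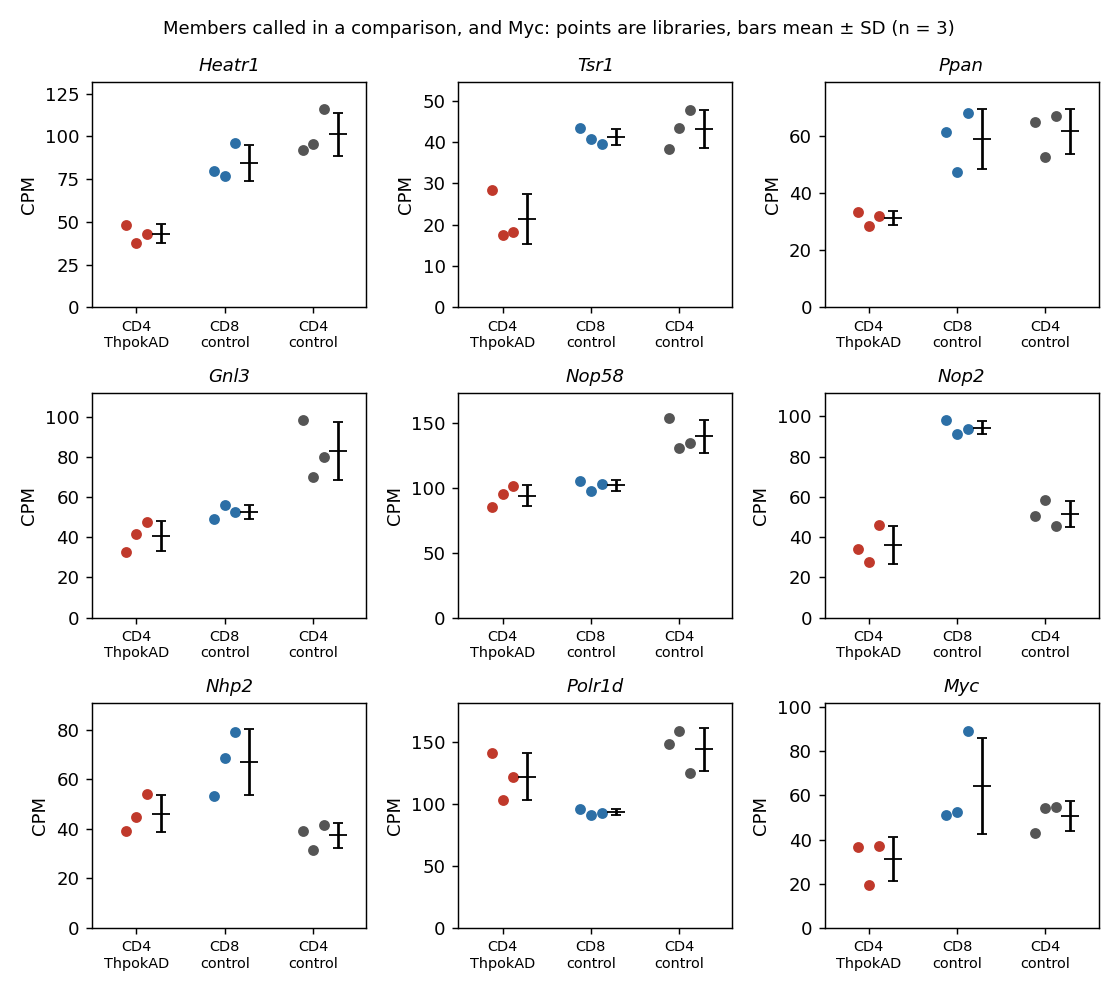
Level (CPM, y axes from 0) of the 8 members called in at least 1 comparison and of Myc in CD4 ThpokAD, CD8 control and CD4 control libraries (x axes); points are libraries and bars the mean with its SD (n = 3). Heatr1, Tsr1, Ppan and Myc are lowest in all 3 ThpokAD libraries, Nop2 is highest in all 3 CD8 control libraries, and Nop58 is highest in all 3 CD4 control libraries.

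Among the 18 large subunit factors, 15 had a log2 fold change below 0 in ThpokAD cells against CD4 controls and 16 against CD8 controls, with medians of -0.27 and -0.50. The summed level was 903, 958 and 940 CPM in ThpokAD libraries, 1220, 1305 and 1380 CPM in CD8 controls and 1180, 1220 and 1225 CPM in CD4 controls, again lowest in the 3 ThpokAD libraries.

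Nop2 (chr6:125131909-125144753, plus strand), a methylase of the large ribosomal RNA whose printed promoter holds 1 E-box, was measured at 34.0, 27.6 and 46.1 CPM in ThpokAD libraries, 98.1, 91.4 and 93.7 CPM in CD8 controls and 50.3, 58.4 and 45.7 CPM in CD4 controls. The CD8 controls were above all other libraries, while ThpokAD and CD4 control libraries overlapped. Its log2 fold change was -1.40 ± 0.20 (SE, adjusted p = 0.00484) in ThpokAD cells against CD8 controls, which held in all 16 alternative fits, and -0.52 (adjusted p = 0.25) against CD4 controls in edgeR. Between CD8 and CD4 controls it was 0.88 ± 0.20 (SE, adjusted p = 0.0245), which missed the threshold when any CD8 control library, or replicate 1 or 3 of the CD4 controls, was left out (adjusted p at least 0.0567).

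Ppan (chr9:20888175-20892178, plus strand), the mouse relative of the yeast large subunit factor Ssf1, was measured at 33.4, 28.6 and 31.9 CPM in ThpokAD libraries, 61.6, 47.6 and 68.3 CPM in CD8 controls and 65.2, 52.8 and 67.2 CPM in CD4 controls. ThpokAD libraries were the 3 lowest and the control groups overlapped. Its log2 fold change was -0.98 ± 0.19 (SE, adjusted p = 0.0284) against CD4 controls and -0.92 ± 0.19 (SE, adjusted p = 0.0218) against CD8 controls in edgeR. The call against CD4 controls was lost without any 1 of the 6 ThpokAD and CD4 control libraries (adjusted p at least 0.0514), and that against CD8 controls without any ThpokAD library or replicate 1 or 3 of the CD8 controls (adjusted p at least 0.0558). Its exons share 165 bases with 2 small nucleolar RNA genes.

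Gnl3 (chr14:31012433-31019152, minus strand), known as nucleostemin, a nucleolar GTP-binding protein of dividing cells, was measured at 32.6, 41.5 and 47.6 CPM in ThpokAD libraries, 49.1, 56.0 and 52.4 CPM in CD8 controls and 98.7, 70.1 and 80.2 CPM in CD4 controls. ThpokAD libraries were below the CD8 controls, and these below the CD4 controls, with no overlap. The log2 fold change was -1.03 ± 0.19 (SE, adjusted p = 0.027) in ThpokAD cells against CD4 controls, -0.66 (adjusted p = 0.0584) in CD8 against CD4 controls and -0.37 (adjusted p = 0.311) in ThpokAD cells against CD8 controls. The one call of the main edgeR fit was lost without replicate 1 or 3 of the CD4 controls. It was also lost without replicate 1 or 2 of the ThpokAD libraries (adjusted p at least 0.0734 in these fits). In CD8 against CD4 controls, DESeq2 and limma called Gnl3 lower (adjusted p = 0.00511 and 0.0454), as did edgeR with bias-adjusted deviances. Gnl3 holds 3 small nucleolar RNA genes and shares 250 exon bases with these and with Pbrm1.

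Pes1 and Bop1 form, with Wdr12, a complex that large subunit maturation needs. Pes1 was measured at 79.6, 68.9 and 83.7 CPM in ThpokAD libraries, 94.5, 116 and 87.1 CPM in CD8 controls and 58.6, 63.4 and 84.8 CPM in CD4 controls. Bop1 was measured at 83.0, 64.3 and 60.4 CPM in ThpokAD libraries, 109, 56.4 and 119 CPM in CD8 controls and 76.0, 69.2 and 67.3 CPM in CD4 controls. For Pes1 the CD8 controls lay above both other groups and for Bop1 all 3 groups overlapped, with log2 fold changes in ThpokAD cells of 0.17 (adjusted p = 0.762) and -0.03 (adjusted p = 0.977) against CD4 controls. Wdr12 averaged 31.6 ± 4.84 CPM in ThpokAD libraries, 35.6 ± 4.44 CPM in CD8 controls and 53.2 ± 3.75 CPM in CD4 controls (SD, n = 3 each), with a log2 fold change of -0.75 (adjusted p = 0.0674) in ThpokAD cells against CD4 controls. The 3 genes of one complex gave different orders of the group means. None was called by edgeR in any comparison, where it called 2.74% to 11.7% of all tested genes. DESeq2 called Wdr12 in ThpokAD cells and in CD8 controls, both against CD4 controls.

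Rrs1, which brings the small 5S ribosomal particle into the large subunit, had the highest log2 fold change of the group in ThpokAD cells against CD4 controls (0.32, adjusted p = 0.665). Mrto4 had the highest against CD8 controls (0.09, adjusted p = 0.882). Between CD8 and CD4 controls Rrs1 had 0.91 (edgeR adjusted p = 0.0636), which DESeq2 called (adjusted p = 0.0146), as did edgeR with bias-adjusted deviances. The remaining large subunit members were Nop16, Rrp1b, Noc2l, Noc3l, Ddx18, Nip7, Brix1, Ftsj3, Mrto4, Gtpbp4 and Gnl2. EdgeR called none of them in any comparison, where it called 2.74% to 11.7% of all tested genes. DESeq2 called Noc2l lower in ThpokAD cells than in CD4 controls (adjusted p = 0.0169) and Nop16, Rrp1b, Brix1 and Ftsj3 lower than in CD8 controls (adjusted p = 0.0202 to 0.0277). Their log2 fold changes in ThpokAD cells were -0.61 to 0.12 against CD4 controls and -1.10 to 0.09 against CD8 controls. Mrto4 and Gtpbp4 have annotated pseudogenes named after them, so their counts are less certain. Pseudogenes of members under other names were not searched for.

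The abundant nucleolar proteins, 4 genes, had no call in any comparison of the main edgeR fit. Of all tested genes, that fit called 2.74% in ThpokAD cells against CD4 controls and 6.54% against CD8 controls. In CD8 against CD4 controls it called 11.7%. Ncl (nucleolin), which binds the precursor RNA, was measured at 593, 548 and 641 CPM in ThpokAD libraries, 444, 458 and 606 CPM in CD8 controls and 603, 669.6 and 544 CPM in CD4 controls. Npm1 (nucleophosmin), a chaperone that holds the outer nucleolus together, was measured at 519, 379 and 529 CPM in ThpokAD libraries, 548, 504 and 203 CPM in CD8 controls and 586, 567 and 476 CPM in CD4 controls. Both genes overlapped between all groups, and the single low Npm1 value came from CD8 control replicate 3. Ddx21, a helicase of both polymerase I transcription and processing, was measured at 162, 164 and 148 CPM in ThpokAD libraries, 166, 178 and 116 CPM in CD8 controls and 154, 205 and 222 CPM in CD4 controls. Its log2 fold change in ThpokAD cells was -0.29 (adjusted p = 0.54) against CD4 controls.

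Nolc1 (Nopp140), which shuttles small nucleolar particles, was measured at 60.5, 56.7 and 66.2 CPM in ThpokAD libraries, 82.0, 103 and 109 CPM in CD8 controls and 79.4, 57.8 and 69.9 CPM in CD4 controls, the CD8 controls being the 3 highest libraries. Its log2 fold change in the main edgeR fit was -0.68 ± 0.17 (SE, adjusted p = 0.0501) in ThpokAD cells against CD8 controls, and -0.18 (adjusted p = 0.714) against CD4 controls. The main fit did not call the first. DESeq2 and limma did, as did edgeR with bias-adjusted deviances or without CD8 control replicate 1.

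Another 105 genes of ribosome biogenesis, mostly further processing, assembly and export factors, were set beside the members, of which 103 were tested. In ThpokAD cells against CD4 controls edgeR called none of them higher or lower (DESeq2 called 3 higher and 3 lower, limma none). At an unadjusted edgeR p under 0.05 there were 15 (14.6%, beside 15.7% of all tested genes). A log2 fold change below 0 was found in 62 of 103, with a median of -0.04. Against CD8 controls 4 were called lower by edgeR, beside a background of 1.91%, and 0 higher, beside 4.63%. There were 29 lower and 4 higher at an unadjusted edgeR p under 0.05 (32% of the list, beside 21.3% of all tested genes). DESeq2 called 17 lower and 2 higher, and limma 6 lower and 1 higher. Of the 103, 78 lay below 0 and the median was -0.34. Without CD8 control replicate 3, 72 lay below 0 and the median was -0.25. Between CD8 and CD4 controls 11 were called higher by edgeR, beside a background of 5.13%, and 3 lower, beside 6.55%. The median was 0.25, and 0.15 without CD8 control replicate 3. The summed level was 6232, 6496 and 6293 CPM in ThpokAD libraries, 6814, 6936 and 7517 CPM in CD8 controls and 6718, 6533 and 6837 CPM in CD4 controls.

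The 4 genes lower in ThpokAD cells than in CD8 controls were Wdr3, Pwp2, Nop10 and Exosc5. Wdr3 and Pwp2, both processome subunits, had log2 fold changes of -0.81 ± 0.17 (SE, adjusted p = 0.025) and -1.23 ± 0.26 (SE, adjusted p = 0.0257) in edgeR. Nop10, the fourth core protein of the box H/ACA particle, had -0.77 (adjusted p = 0.0258), and the exosome subunit Exosc5 had -0.87 (adjusted p = 0.036). In CD8 against CD4 controls the smallest adjusted p among these genes belonged to Znhit6, a box C/D assembly factor (log2 fold change 1.41, adjusted p = 0.00923), Riok1, a small subunit kinase (-0.88, adjusted p = 0.0143), and the exosome subunit Exosc4 (1.08, adjusted p = 0.0144).

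Ttf1, which ends polymerase I transcription, was lower in ThpokAD cells than in CD8 controls, with a log2 fold change of -1.17 ± 0.20 (SE, adjusted p = 0.00987), and higher in CD8 than in CD4 controls, with 1.36 ± 0.20 (SE, adjusted p = 0.00272), and was the one gene that edgeR called among 10 further polymerase I genes. In CD8 against CD4 controls DESeq2 called 2 of the 10 higher and 2 lower, and limma 2 higher and 1 lower, and DESeq2 called 2 lower in ThpokAD cells than in CD8 controls. Against CD4 controls none of the 10 was called in ThpokAD cells by edgeR, DESeq2 or limma. At an unadjusted edgeR p under 0.05 there was 1 (10%, beside 15.7% of all tested genes). Of 22 polymerase III genes, Polr3k was called higher in ThpokAD cells (log2 fold change 1.27, adjusted p = 0.0376) and in CD8 controls (1.74, adjusted p = 0.00317), both against CD4 controls. Polr3b was called lower in ThpokAD cells than in CD8 controls (-0.97, adjusted p = 0.0447). Over all tested genes edgeR called 1.81% higher in ThpokAD cells and 5.13% higher in CD8 controls, both against CD4 controls. It called 1.91% lower in ThpokAD cells than in CD8 controls.

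**Figure D4:**
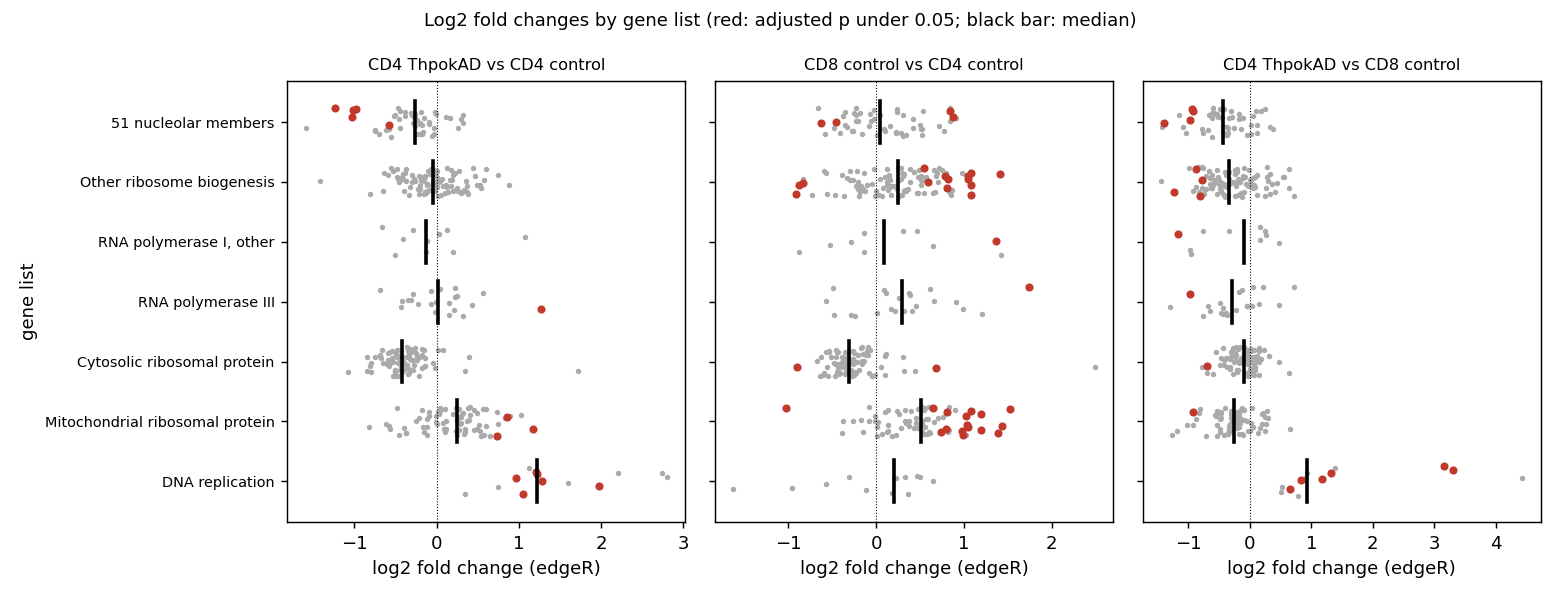
Log2 fold changes (x axes) of the 51 members and of the tested genes of 6 other lists (rows) in the 3 comparisons (panels); each point is a gene, red where the edgeR adjusted p was under 0.05, and black bars are medians. The members' median was -0.27 in ThpokAD cells against CD4 controls and -0.44 against CD8 controls, whereas that of the DNA replication genes was 1.22 and 0.94.

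The products that these factors help to assemble are the ribosomal proteins. Of 89 cytosolic ribosomal protein entries 85 were tested, with medians of -0.42 in ThpokAD cells against CD4 controls, -0.09 against CD8 controls and -0.31 between CD8 and CD4 controls. In ThpokAD cells against CD4 controls edgeR called none (DESeq2 called 5 lower, limma none). At an unadjusted edgeR p under 0.05 there were 20 lower and 0 higher (23.5%, beside 15.7% of all tested genes). Of the 85, 50 did not overlap and were lower, beside 12.5% of all genes. Their summed level was 17380, 14820 and 19480 CPM in ThpokAD libraries, 22200, 22410 and 10580 CPM in CD8 controls and 24760, 24350 and 21040 CPM in CD4 controls, with CD8 control replicate 3 far below the others. CD8 control replicates 1 and 2 lay above every ThpokAD library and within the range of the CD4 controls. Both medians that involve CD8 controls include replicate 3. Mitochondrial ribosomal proteins, 75 tested, had medians above 0 against CD4 controls, at 0.25 in ThpokAD cells and 0.51 in CD8 controls. By edgeR 3 were called higher in ThpokAD cells, beside a background of 1.81%. In CD8 controls 15 were called higher, beside 5.13%, and 1 lower, beside 6.55%. Mrpl18, in the large mitochondrial subunit, had log2 fold changes of 0.73 (adjusted p = 0.0266) and 1.02 (adjusted p = 0.00168) in these comparisons, and Mrpl40 1.17 (adjusted p = 0.0179) and 1.44 (adjusted p = 0.00204). Against CD8 controls 1 mitochondrial gene, Mrpl49, was lower in ThpokAD cells (log2 fold change -0.93, adjusted p = 0.031).

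DNA replication genes, which cells use in S phase, had their highest levels in ThpokAD cells. Of 13 genes 6 were called higher by edgeR against CD4 controls, beside a background of 1.81%, and 6 against CD8 controls, beside 4.63%. In both comparisons every ThpokAD library lay above every control library in all 13, beside 13.2% and 14.6% of all genes. Summed levels were 2445, 1860 and 2071 CPM in ThpokAD libraries, 959, 766 and 959 CPM in CD8 controls and 702, 890 and 864 CPM in CD4 controls. Mcm5, a subunit of the replicative helicase, was measured at 149, 150.5 and 189 CPM in ThpokAD libraries, 61.7, 45.9 and 88.0 CPM in CD8 controls and 40.3, 34.2 and 50.1 CPM in CD4 controls, with a log2 fold change of 1.97 ± 0.26 (SE, adjusted p = 0.00501) against CD4 controls and 1.32 ± 0.25 (SE, adjusted p = 0.0166) against CD8 controls. Mcm2 had 0.96 (adjusted p = 0.0117) against CD4 controls. The part of cycling cells in the levels of the nucleolar genes was not tested.

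Of 10 tested partners and rivals of MYC, the repressors Mxd1, Mnt, Mxi1 and Mxd4 were called higher in ThpokAD cells than in CD8 controls. The background of genes that edgeR called higher there was 4.63%. Mxd1, which pairs with MAX in place of MYC, was measured at 255, 242 and 237 CPM in ThpokAD libraries, 29.6, 60.3 and 35.5 CPM in CD8 controls and 352, 312 and 237 CPM in CD4 controls, with a log2 fold change of 2.55 ± 0.27 (SE, adjusted p = 0.000747) against CD8 controls. Mnt had a log2 fold change of 1.39 (adjusted p = 0.00398) and Mxi1 1.31 (adjusted p = 0.0105) in that comparison. Mxd1 and Mnt were also lower in CD8 than in CD4 controls (-2.85, adjusted p = 0.000229, and -1.42, adjusted p = 0.00199). In ThpokAD cells against CD4 controls 1 gene, Mga, was lower (log2 fold change -0.96, adjusted p = 0.0466).

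Odc1, which makes the polyamine putrescine and is a textbook target of MYC, was measured at 262, 240.3 and 228 CPM in ThpokAD libraries, 15.8, 14.5 and 35.2 CPM in CD8 controls and 629, 703 and 470.4 CPM in CD4 controls. The CD8 controls were far below both CD4 groups, with log2 fold changes of 3.47 ± 0.34 (SE, adjusted p = 0.000536) in ThpokAD cells against CD8 controls and -4.77 ± 0.37 (SE, adjusted p = 7.08e-05) in CD8 against CD4 controls. Every ThpokAD library also lay below every CD4 control library, with a log2 fold change of -1.30 that edgeR did not call. Of the 21 nucleotide and polyamine synthesis genes edgeR called none in ThpokAD cells against CD4 controls. DESeq2 called 1 higher and 1 lower, and limma 1 lower. At an unadjusted edgeR p under 0.05 there were 3 (14.3%, beside 15.7% of all tested genes). By edgeR 2 were higher and 1 lower against CD8 controls, beside backgrounds of 4.63% and 1.91%. Impdh2, the rate-limiting enzyme of guanine nucleotide synthesis, had a log2 fold change of 0.90 (adjusted p = 0.0372) and Gart, a purine enzyme, -0.98 (adjusted p = 0.0263) in the comparison with CD8 controls.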

How the data were processed

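RNA was measured in 9 libraries. Per the labels' protocols, low-input amplification and tagging kits without strand marking were used, and both ends of each fragment were read. Tools listed in the submitters' processing notes include STAR and HTSeq, with bcl2fastq at version 2.17, on the mm10 build. The authors deposited raw counts per gene symbol, and a second deposited table of signal, the same counts multiplied by 1 factor per library, which served only an alternative test.

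Genes passing edgeR's filterByExpr (minimum count 10, minimum total 15) numbered 15738. They were tested on the deposited counts by quasi-likelihood in edgeR 4.0.16 (R 4.3.3). Libraries were scaled by TMM and all 9 entered a single fit. P-values were adjusted by Benjamini-Hochberg over all tested genes, and a gene was called at an adjusted p under 0.05. The standard error is the log2 fold change over the square root of F. The 3 comparisons share libraries. The script was tested on simulated data. Alternatives used DESeq2 1.42.0, limma 3.58.1 (pseudocount 0.5 on the signal), other scaling, no filter, fewer libraries, a replicate block and each library left out. Gene positions are those of GENCODE M21 (mm10), 1-based, and promoters those of RefSeq (GRCm38.p6).

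The members and the other lists were chosen with earlier results of these data known. Per-library values are given for Myc, the best known members of each role and every called member. The members with the extreme fold changes of a role are named, and up to 3 called genes of each other list. Other genes were named after their values were seen. No protein sequences were used here.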

Additional observations from a re-analysis of the deposited data

How the results depend on the processing

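The main fit called 5 members in ThpokAD cells against CD4 controls, 4 against CD8 controls and 4 in CD8 against CD4 controls. DESeq2's Wald test called 9, 14 and 9 members in these comparisons. Against CD4 controls, no filter on low counts and a fit of only the 6 libraries compared each called 3 members. Against CD8 controls the 6 libraries alone called 2 members, and bias-adjusted deviances called 7, as they did in CD8 against CD4 controls. With 1 library left out, 1 to 3 members were called in ThpokAD cells against CD4 controls, 2 to 3 against CD8 controls and 0 to 4 in CD8 against CD4 controls. Over all genes the main fit called 431, 1030 and 1839 in the same 3 comparisons. DESeq2 called 1456, 2385 and 3250 genes, limma-trend 721 against CD4 controls, and bias-adjusted deviances 1638 against CD8 controls. With 1 library left out the ranges were 181 to 477, 589 to 788 and 1058 to 1667. Of the 13 calls of members, 3 held in all 16 alternatives: Heatr1 against both controls and Nop2 against CD8 controls in ThpokAD cells. The number of members below 0, recounted under each alternative in a check added after seeing the data, was 40 to 45 against CD4 controls, 41 to 43 against CD8 controls and 22 to 25 in CD8 against CD4 controls. The cause of these differences was not tested.

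Same-numbered libraries of different groups did not deviate together: their correlations were -0.0454 to 0.062 over 9 pairs, and 2 of 9 libraries correlated best with their own number. The replicate block was therefore only an alternative. With it 2 members and 281 genes were called in ThpokAD cells against CD4 controls, 3 members and 684 genes against CD8 controls, and 1 member and 1461 genes in CD8 against CD4 controls.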

Other observations

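Other groups of genes work with the finished ribosome. Of 42 translation initiation and elongation factors, edgeR called 1 higher in ThpokAD cells than in CD8 controls, beside a background of 4.63%. This gene was Eif1, which helps the ribosome to find the start codon. In CD8 against CD4 controls edgeR called 1 of the 42 higher, beside 5.13%, and 4 lower, beside 6.55%. Eif1 was measured at 685, 759.7 and 795 CPM in ThpokAD libraries, 465, 556 and 415 CPM in CD8 controls and 838, 851 and 901 CPM in CD4 controls, with a log2 fold change of 0.64 (edgeR adjusted p = 0.0163) in ThpokAD cells against CD8 controls and -0.85 (adjusted p = 0.00241) in CD8 against CD4 controls. None of the 42 was called in ThpokAD cells against CD4 controls by edgeR, while DESeq2 called 1 and limma 0. At an unadjusted edgeR p under 0.05 there were 3 (7.14%, beside 15.7% of all tested genes).

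Of 20 cytosolic tRNA synthetases, which load amino acids onto tRNAs, Mars was called higher and Eprs lower by edgeR in CD8 than in CD4 controls. The backgrounds of all tested genes there were 5.13% called higher and 6.55% called lower, so these calls lay near the background. Mars, the methionine enzyme, was measured at 106, 99.6 and 84.9 CPM in ThpokAD libraries, 86.4, 107 and 123 CPM in CD8 controls and 45.9, 41.5 and 70.5 CPM in CD4 controls, and Eprs, the glutamate and proline enzyme, at 188, 214 and 249.7 CPM in ThpokAD libraries, 177, 201 and 155 CPM in CD8 controls and 313, 348 and 275 CPM in CD4 controls. In ThpokAD cells against CD4 controls none was called by edgeR, while DESeq2 called 4 (3 higher, 1 lower) and limma 1. At an unadjusted edgeR p under 0.05 there were 4 (20%, beside 15.7% of all tested genes).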
